A study of Mus musculus with 12 samples.

Results

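A set of 10 genes of the AP-1 transcription factor family and the immediate early response was followed in pancreatic islet RNA, namely Junb, Jun, Jund, Fos, Fosb, Egr1, Ier2, Atf3, Btg2 and Dusp1. They were chosen by name, and every non-control probe of them on the array was taken, which gave 14 probes of 10 genes among 41174 probes, of which 24375 carried 1 of 17016 gene symbols. The islets came from 6 NOD mice, a strain that develops autoimmune diabetes, and from 6 NOD.B10 mice, the healthy control strain, which has the NOD background with another MHC haplotype. All mice were female and 12 weeks old per the labels, and neither strain carried a transgene or received a treatment that the labels name. Sections of 8 μm were cut from frozen pancreas, at least 40 islets per mouse were collected by laser capture microdissection, and the amplified RNA of each mouse was labelled with Cy5 and hybridised on its own 2-colour array against a common Cy3-labelled mouse reference RNA. Captured sections hold whatever cells lie within the islet outline, and amplification precedes the measurement.

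AP-1 is a dimer of basic leucine zipper proteins, formed among the Jun proteins or between a Jun and a Fos or ATF protein, that binds a short palindromic DNA element. Immediate early genes are transcribed within minutes of a stimulus without new protein synthesis, mostly through MAP kinases acting on transcription factors already present, and their transcripts are short-lived. In islets they respond to glucose, cytokines and cell stress, and they are also rapidly induced when tissue is handled and when lymphocytes or macrophages are activated.

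The promoters of the genes on which the comparison turned are shown because Junb, Jund and Btg2 were called higher together, and Dusp1 because it shares a motif with Btg2. Each window runs from 250 bases before to 50 bases after the gene start in RefSeq, build GRCm38.p6, printed 5′ to 3′ on the gene's strand. Capitals mark a match to a searched motif. The Junb window is chr8:84978699-84978998 on the minus strand, the Jund window chr8:70697489-70697788 on the plus strand, the Btg2 window chr1:134079106-134079405 on the minus strand and the Dusp1 window chr17:26508423-26508722 on the minus strand.
Junb: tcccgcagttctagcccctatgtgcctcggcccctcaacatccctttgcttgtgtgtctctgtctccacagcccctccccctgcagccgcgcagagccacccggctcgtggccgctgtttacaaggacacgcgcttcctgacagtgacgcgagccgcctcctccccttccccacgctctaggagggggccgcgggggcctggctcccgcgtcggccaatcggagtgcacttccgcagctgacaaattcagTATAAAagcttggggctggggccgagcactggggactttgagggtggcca
Jund: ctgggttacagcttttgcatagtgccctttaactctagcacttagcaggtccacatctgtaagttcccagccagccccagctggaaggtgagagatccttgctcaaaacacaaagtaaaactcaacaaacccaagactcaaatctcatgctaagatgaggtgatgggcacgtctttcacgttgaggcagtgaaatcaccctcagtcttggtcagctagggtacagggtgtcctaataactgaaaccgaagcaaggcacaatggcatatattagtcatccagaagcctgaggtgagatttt
Btg2: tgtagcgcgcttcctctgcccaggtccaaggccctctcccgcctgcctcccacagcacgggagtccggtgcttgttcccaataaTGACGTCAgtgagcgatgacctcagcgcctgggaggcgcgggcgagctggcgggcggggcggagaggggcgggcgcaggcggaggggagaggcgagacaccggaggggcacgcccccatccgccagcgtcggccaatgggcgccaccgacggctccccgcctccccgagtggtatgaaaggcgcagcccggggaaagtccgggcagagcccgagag
Dusp1: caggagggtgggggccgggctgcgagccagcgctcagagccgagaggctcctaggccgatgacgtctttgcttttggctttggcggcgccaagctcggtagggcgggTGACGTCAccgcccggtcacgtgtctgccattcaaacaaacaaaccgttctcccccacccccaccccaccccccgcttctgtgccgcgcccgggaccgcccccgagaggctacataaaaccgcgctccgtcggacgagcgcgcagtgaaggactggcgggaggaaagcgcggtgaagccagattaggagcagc

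A window was found for 8 of the 10 genes. Both strands were searched for the AP-1 element TGANTCA, the cyclic AMP response element TGACGTCA (CRE, bound by CREB and ATF proteins), the STAT element TTCNNNGAA, the TATA box TATAAA, and the CArG box of serum response factor and the NF-kB element. The CRE was found in the Btg2 window at bases 85 to 92 and in the Dusp1 window at bases 108 to 115, counted from 1 at the 5′ end, and 1.79% of all 32851 windows of this length held it. The Junb window held TATAAA at bases 251 to 256, on the annotated start itself (positions 0 to 5 from it). The Fos window held it at bases 218 to 223, before the start (positions -33 to -28). TATAAA was present in 13.6% of all windows. The NF-kB element was matched in the windows of Fos and Fosb, against 8.46% of all windows. The windows of Jund, Jun and Atf3 held none of these letters, and the annotated start of Jund may lie upstream of the start used in islets. The AP-1 element (7.81% of all windows), the STAT element (8.3%) and the CArG box (1.63%) were in none of the 8 windows. These matches describe letters in a fixed window around an annotated start and not sites in use.

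NOD arrays had more readable spots in Cy5, and this bears on every value below. The feature extraction marked Cy5 as well above background on 14 ± 2.55% of non-control spots in NOD, against 6.21 ± 1.37% in NOD.B10 (SD, n = 6 each, exact 2-sided permutation p = 0.00216, the smallest that 6 against 6 arrays allow). The reference channel did so on 50.4 ± 1.94% and 50.1 ± 2.27% of spots in NOD and NOD.B10 (exact permutation p = 0.781). Over 1083 probes well above background on all 12 arrays, unscaled net Cy5 was 3.14-fold higher in NOD (median log2 difference 1.65). The part of this brightness in each result was not tested, beyond a fit that carried it as a covariate. The share of bright spots did not overlap between the strains (10.65 to 17.32% in NOD and 3.96 to 7.88% in NOD.B10). That fit can therefore hardly tell brightness from strain. The arrays lay on 4 slides. Slide 1 held NOD replicates 1 and 2 only, slide 4 held NOD.B10 replicates 2 and 3 only and was scanned on another day, and slides 2 and 3 held 2 mice of each strain, so only these gave differences within a slide.

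Levels are log2 ratios of islet Cy5 to reference Cy3 after background correction (normexp with an offset of 50, which draws ratios of dim spots towards 0) and loess within each array, and net Cy5 is the unscaled signal minus local background in scanner units. The filter asked for Cy5 well above background on 4 or more of 12 arrays. Of the 14 probes, 7 passed, which left 5 of the 10 genes tested (Junb, Jund, Btg2, Egr1 and Dusp1). Egr1 and Dusp1 passed through NOD arrays alone. With limma and Benjamini-Hochberg adjustment over 3920 genes, Junb, Btg2 and Jund were higher in NOD and none of the 5 was lower. Across all genes tested, 738 (18.8%) were higher and 697 (17.8%) lower at the same adjusted p of 0.05, together 1435 (36.6%). That split depended on scaling: it was 1966 higher and 0 lower when arrays were centred on their median in place of loess, 879 and 247 for Cy5 alone, 1095 and 313 for the scanner's processed ratio, and 135 and 265 for net ratios of 833 bright genes. Since probes dim in NOD.B10 passed through NOD, the count of 3 among those tested supports no statement about the 10 genes as a group.

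**Figure D1:**
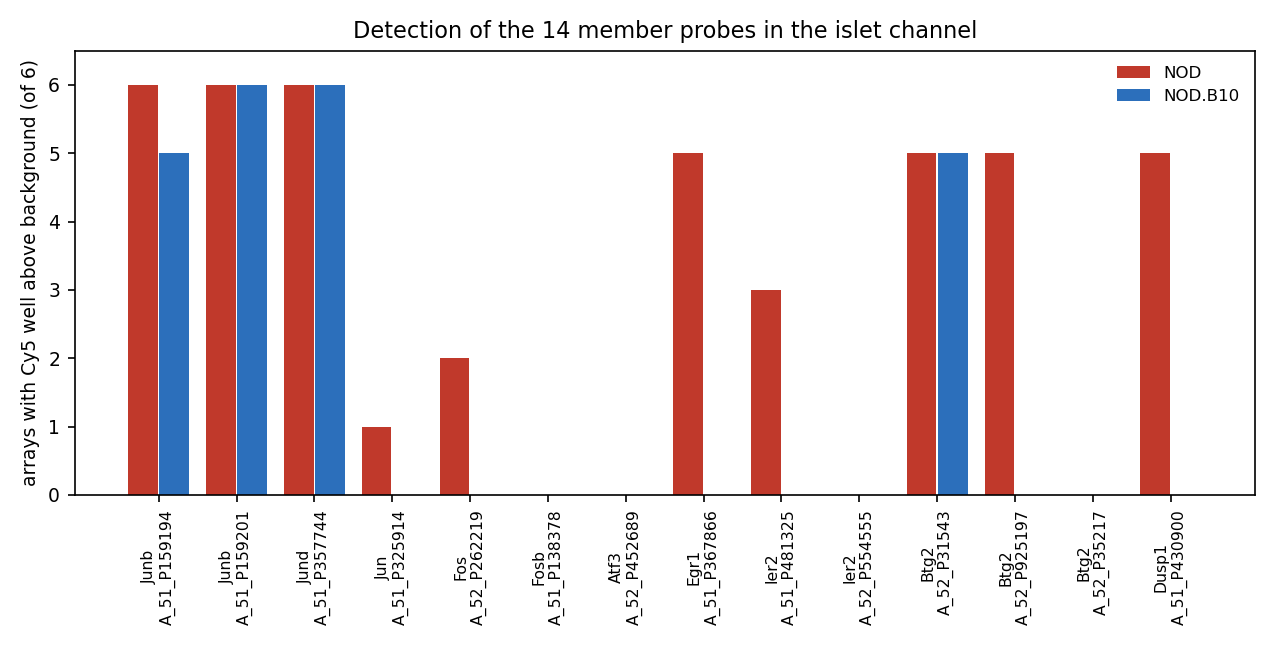
Arrays, of 6 per strain, on which the Cy5 signal of each of the 14 probes was well above background, with NOD left of NOD.B10 and probe names under the gene names. Both Junb probes, Jund and 1 Btg2 probe were read in both strains, and Egr1, Dusp1, Jun, Fos and 1 probe each of Ier2 and Btg2 on NOD arrays only.

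Junb, the Jun protein that often restrains Jun and takes part in lymphocyte and myeloid differentiation, was the member with the largest difference. Its brighter probe (A_51_P159201, transcript NM_008416, chromosome 8) had log2 ratios of 3.06, 2.75, 2.74, 2.66, 2.20 and 2.34 in NOD replicates 1 to 6, against 0.23, 0.23, 0.28, 0.28, 0.29 and 0.23 in NOD.B10 replicates 1 to 6. Every NOD array lay above every NOD.B10 array, a separation found for 377 of the 3920 genes tested (9.62%, and 7.22% with every NOD array lower), and the NOD.B10 values were close to each other. The mean was 2.62 ± 0.307 in NOD, against 0.26 ± 0.0302 in NOD.B10 (SD, n = 6 each), a log2 difference of 2.37 ± 0.13 (SE) or 5.16-fold (limma adjusted p = 1.8e-07), and Junb ranked 2 by p and 33 by size among the 3920 genes. Unscaled, its net Cy5 was 473, 563, 254, 266, 162.5 and 264 in NOD and 19, 16, 15.5, 17, 25.5 and 13 in NOD.B10, so the ratio of the means was 18.7 before any scaling. Junb Cy5 was well above background on all 12 arrays, although no NOD.B10 net value exceeded 25.5.

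A different Junb probe (A_51_P159194) of the same transcript gave log2 ratios of 2.62, 2.58, 2.62, 2.93, 1.41 and 2.01 in NOD and 0.18, -0.22, 0.11, 0.40, 0.28 and 0.42 in NOD.B10. The strains did not overlap here either, and NOD replicate 5 was lowest of its strain with both probes. The difference was 2.17 ± 0.225 (SE, n = 6 per strain), with a limma adjusted p of 3.9e-05 over all 5347 passing probes, of which 20.1% were called higher. In bulk RNA of this kind, more cells of a type and more RNA per cell cannot be told apart. Within slide 2 the Junb difference was 2.44 (limma adjusted p = 0.031) and within slide 3 it was 2.01 (adjusted p = 0.072, 2 mice per strain), while with the share of bright spots as a covariate it was 1.89 (adjusted p = 0.015).

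Jund, the most widely and steadily expressed Jun protein, was read well above background on all 12 arrays. Probe A_51_P357744 (NM_010592, chromosome 8) had log2 ratios of 1.78, 1.37, 1.34, 1.83, 1.41 and 1.80 in NOD and 1.69, 0.75, 0.76, 1.17, 1.26 and 0.94 in NOD.B10. The strains overlapped, since NOD.B10 replicate 1 lay above 3 NOD arrays. The difference was 0.49 ± 0.168 (SE), or 1.41-fold, with a limma adjusted p of 0.034, and net Cy5 averaged 247.7 ± 96.8 in NOD, against 59.6 ± 20.8 in NOD.B10 (SD, n = 6 each). The call did not hold when any of 7 mice was left out: without NOD replicates 1, 4 or 6 the differences were 0.46, 0.44 and 0.45 (adjusted p 0.072, 0.071 and 0.073), and without NOD.B10 replicates 2, 3, 4 or 6 they were 0.42, 0.43, 0.51 and 0.46 (adjusted p 0.078, 0.077, 0.052 and 0.068). Its sign turned with the scaling, at -0.03 with an offset of 16 and -0.47 relative to the median gene with the scanner's processed ratio, and it was 0.16 within slide 2 and 0.51 within slide 3.

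Jun, the founding member of the family and the usual partner of Fos, was not readable enough to be tested. Its probe (A_51_P325914) was spotted 10 times per array, and Cy5 passed the background mark on 11 of 60 spots in NOD, against 0 of 60 in NOD.B10, while the reference channel was so on all of them. Net Cy5 of Jun was 5.3 to 10.4 in NOD and 0.4 to 1.9 in NOD.B10 per array, and its log2 ratios ran from -0.23 to 0.01 in NOD and from -0.11 to -0.04 in NOD.B10. The SD among the 10 spots of an array was 0.107 to 0.209 in NOD and 0.106 to 0.158 in NOD.B10.

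Fos, the Fos protein that heads most acute responses, also had 10 spots per array. In Cy5, 15 of 60 Fos spots passed the background mark in NOD, against 0 of 60 in NOD.B10, and all did in Cy3. By array, Fos reached the mark on 2 NOD arrays, with a net Cy5 of 12 in replicate 1 and 9.6 in replicate 3, and its log2 ratios ran from -0.24 to 0.10 in NOD and from -0.08 to -0.01 in NOD.B10. Fosb, a paralogue of Fos known for lasting neuronal induction, was well above background on no array in Cy5 and on 2 of 12 arrays in Cy3, with net Cy5 from -6 to 6.5. Atf3, a stress-induced ATF protein that dimerises with Jun proteins, was well above background on no array in Cy5 and on 10 in Cy3, with net Cy5 from -6 to 4.5. For Jun, Fos, Fosb and Atf3, a difference between the strains was not measurable at this signal.

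Egr1, a zinc finger factor induced through serum response factor and Elk proteins, is among the glucose-responsive genes of beta cells. Its probe (A_51_P367866, NM_007913, chromosome 18) had log2 ratios of 0.38, 0.01, 0.56, 0.52, 0.03 and 0.01 in NOD and -0.07, -0.07, 0.08, 0.04, 0.27 and 0.15 in NOD.B10. The strains overlapped, and the difference of 0.18 ± 0.126 (SE) did not pass (limma adjusted p = 0.273). Relative to the median gene it was 1.38 with the scanner's processed ratio and -0.24 with median centring. The test with the processed ratio was of the value before the median of 0.48 was taken away (limma adjusted p = 0.0498). Net Cy5 was 20.5, 15, 21, 20, 6 and 8.5 in NOD and 1.5, 1, 4, 3, 9 and 5.5 in NOD.B10, well above background on 5 NOD arrays and on 0 of 6 in NOD.B10, so no fold is given. Ier2, a short-lived nuclear protein of the immediate early class, was well above background in Cy5 on 3 NOD arrays and 0 NOD.B10 arrays with probe A_51_P481325 (net Cy5 2.5 to 7 in NOD and -6 to 1.5 in NOD.B10) and on no array with probe A_52_P554555. Neither Ier2 probe passed the filter.

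Btg2, an antiproliferative protein that recruits deadenylase to mRNA and is a known p53 target, was higher in NOD by its brightest probe. Probe A_52_P31543 (NM_007570, chromosome 1) had log2 ratios of 0.80, 1.66, 1.11, 1.12, -0.10 and 0.93 in NOD and 0.43, 0.14, -0.05, 0.25, 0.21 and 0.40 in NOD.B10. Of the NOD arrays, 5 lay above every NOD.B10 array and replicate 5 lay below them all. The difference was 0.69 ± 0.226 (SE), or 1.61-fold (limma adjusted p = 0.029), and net Cy5 averaged 78.9 ± 53.6 in NOD, against 12.9 ± 3.56 in NOD.B10 (SD, n = 6 each). A probe of the same transcript, A_52_P925197, differed by 0.15 ± 0.138 (adjusted p = 0.429 over all passing probes) and was well above background on 5 NOD arrays and 0 NOD.B10 arrays, and A_52_P35217 was so on no array in either channel. The probes thus disagreed on the call.

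The Btg2 call was lost without NOD replicates 2, 4 or 6 (0.54, 0.65 and 0.69, limma adjusted p 0.06, 0.057 and 0.051) and without NOD.B10 replicates 2, 3 or 5 (0.67, 0.63 and 0.69, adjusted p 0.054, 0.063 and 0.0503). With the share of bright spots as a covariate the Btg2 difference turned to -0.18 (adjusted p = 0.952), and it was 0.78 within slide 2 and 0.11 within slide 3.

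Dusp1, a nuclear phosphatase that is induced by MAP kinases and switches them off, did not pass. Probe A_51_P430900 (NM_013642, chromosome 17) had log2 ratios of -0.72, -0.90, -0.15, 0.13, -0.18 and -0.20 in NOD and -0.10, -0.17, -0.17, -0.38, -0.29 and -0.28 in NOD.B10. NOD replicates 1 and 2 lay below all other arrays and the rest overlapped. The difference was -0.11 ± 0.159 (SE, limma adjusted p = 0.639), and its sign turned with the scaling, to 0.25 for Cy5 alone and 0.89 for the scanner's processed ratio, where it passed (adjusted p 0.011 and 0.018). The value of 0.89 is relative to the median gene, and its test was of the value before that shift. Unscaled net Cy5 of Dusp1 was 12, 11.5, 16.5, 29, 12 and 25 in NOD and 5, 2.5, 2, -1.5, 3 and -0.5 in NOD.B10, higher on every NOD array, while no NOD.B10 array was well above background.

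**Figure D2:**
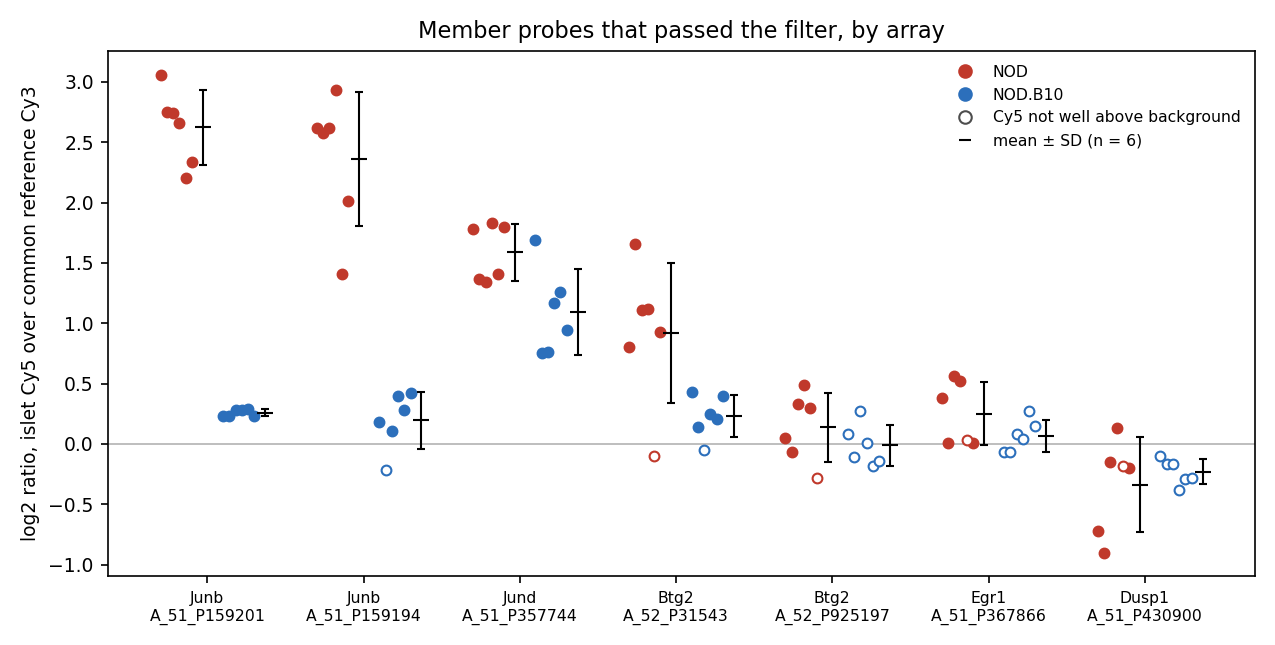
Log2 ratio of islet Cy5 to reference Cy3 on each array for the 7 probes that passed the filter, with NOD left of NOD.B10, points in the order of replicates 1 to 6, and bars for mean ± SD (n = 6). Junb stands apart between the strains with both probes, Jund and Btg2 overlap, and open points mark Cy5 not well above background.

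The other genes of the pathway were taken from lists chosen by role. Among other AP-1 and bZIP genes, 4 of 14 with a probe were tested and 0 passed in either direction (median log2 difference -0.23, against -0.0035 over all 3920 genes tested, of which 18.8% were higher and 17.8% lower), and 1 of the 4 had an unadjusted p under 0.05 in each direction. Maf, a large Maf factor of T helper cells and macrophages, had a difference of -0.34 ± 0.127 (limma adjusted p = 0.054), and Maff, a small Maf protein, one of 0.25 ± 0.115 (adjusted p = 0.106), both with 0 NOD.B10 arrays well above background. Maf net Cy5 was 11 to 30 in NOD and -2 to 4.5 in NOD.B10, and it passed as higher for Cy5 alone (0.28, adjusted p = 0.003) and for the processed ratio (1.47, adjusted p = 4e-05). It passed as lower with array weights (-0.35, adjusted p = 0.024), without NOD replicate 5 (-0.43, adjusted p = 0.0069) and without NOD.B10 replicate 5 (-0.39, adjusted p = 0.034). Maff passed as higher with no background correction (0.35, adjusted p = 0.031), with median centring (adjusted p = 0.03) and with the processed ratio (1.40, adjusted p = 0.0069). The processed-ratio values of Maf and Maff are relative to the median gene. Their tests, and that with median centring, were of the values before that shift.

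Of 50 other immediate early genes, 19 were tested, of which 11 were higher and 1 lower in NOD, against 18.8% higher and 17.8% lower over all genes tested, with a median log2 difference of 0.57. Of the 19, 9 were well above background on 0 NOD.B10 arrays, so they entered the test through NOD alone and their counts support no statement about the list, and 24 of the 50 were read on no array. Irf1, an interferon-induced transcription factor, had log2 ratios from 1.39 to 2.54 (median 1.68) in NOD and from -0.38 to 0.27 (median -0.06) in NOD.B10. Those of Irf1 did not overlap, and the difference was 1.94 ± 0.222 (limma adjusted p = 6.4e-05), with 1 NOD.B10 array well above background. Zfp36l1, which binds AU-rich elements and speeds mRNA decay, differed by 1.68 ± 0.241 or 3.20-fold (adjusted p = 0.00028). Socs3, a feedback inhibitor of STAT signalling, was at least 2.56-fold higher (adjusted p = 0.00014), given as a bound since its Cy5 was well above background on 0 NOD.B10 arrays. This bound holds only for the scaling it was computed on, and with Cy5 alone the Socs3 log2 difference was 0.87.

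Gadd45b, a stress protein that acts on MAP kinase kinases, was at least 1.78-fold higher on the same terms (limma adjusted p = 0.00019). Gadd45g, its paralogue, was the member of that list called lower, with log2 ratios from -0.80 to 0.37 in NOD and from 0.04 to 0.27 in NOD.B10 and a difference of -0.55 ± 0.167 (limma adjusted p = 0.021). Its unscaled net Cy5 averaged 30.7 in NOD and 15.2 in NOD.B10, higher in NOD before scaling, and with the share of bright spots as a covariate the difference was 0.06. The others called higher were Btg1, Egr2, Ier5, Klf2, Klf6, Nfkbia and Tnfaip3.

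Upstream of the immediate early genes, 7 of 30 kinases and factors with a probe were tested, with a median log2 difference of 0.21. Of these, 2 were higher and 1 lower, against 18.8% higher and 17.8% lower over all genes tested. Of the 7, 3 entered through NOD arrays alone, and 19 of the 30 were read on no array. Map3k1, a kinase that feeds the JNK branch, which phosphorylates Jun, had log2 ratios from 1.04 to 2.79 in NOD and from -0.24 to 0.25 in NOD.B10. It was well above background on all 12 arrays, its strains did not overlap, and the difference was 1.83 ± 0.242 or 3.57-fold (limma adjusted p = 0.00017). Mrtfa, an actin-regulated partner of serum response factor, was at least 1.14-fold higher on the terms given for Socs3 (adjusted p = 0.011). Its sign relative to the median gene was -0.07 with median centring.

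Among feedback inhibitors of MAP kinases, 3 of 13 with a probe were tested and 2 were higher (18.8% of all genes tested were, median 0.64), and 2 of the 3 entered through NOD arrays alone. Dusp2, a phosphatase of activated leukocytes, was at least 1.85-fold higher on the terms given for Socs3 (limma adjusted p = 6.1e-05), with net Cy5 of 34 to 143 in NOD and -3 to 2 in NOD.B10. Dusp6, another MAP kinase phosphatase, differed by 0.64 ± 0.177 or 1.56-fold (adjusted p = 0.013). Among genes known as AP-1 targets, 3 of 15 with a probe were tested and 2 were higher (against the same 18.8%, median 0.75), and 1 of the 3 entered through NOD arrays alone. Vim, the intermediate filament of mesenchymal cells and leukocytes, differed by 1.73 ± 0.254 or 3.32-fold (adjusted p = 0.00033). Cd44, an adhesion receptor, was at least 1.45-fold higher on the terms given for Socs3 (adjusted p = 0.0037).

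None of the calls on list genes given above with a fold or difference held with the share of bright spots as a covariate. As said above, that fit can hardly tell brightness from strain. With it, 3 of the 3920 genes tested were called higher and 0 lower, so losing the call was not particular to these genes. The differences then were 0.65 for Irf1, 1.15 for Zfp36l1, 0.67 for Socs3 and 0.47 for Gadd45b (limma adjusted p 0.719, 0.685, 0.774 and 0.774). They were 0.57 for Map3k1, 0.89 for Dusp2, 0.72 for Dusp6, 0.51 for Vim and 0.014 for Cd44 (adjusted p 0.814, 0.604, 0.774, 0.857 and 0.99), and -0.11 for Mrtfa (0.954). With 2 mice per strain on a slide, Irf1 alone of these passed within slide 2 and none passed within slide 3, although every sign was kept there. Map3k1 differed by 1.48 within slide 2 and 1.47 within slide 3, Vim by 1.39 and 1.62, Cd44 by 0.71 and 0.47, and Dusp6 by 0.22 and 1.19.

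**Figure D3:**
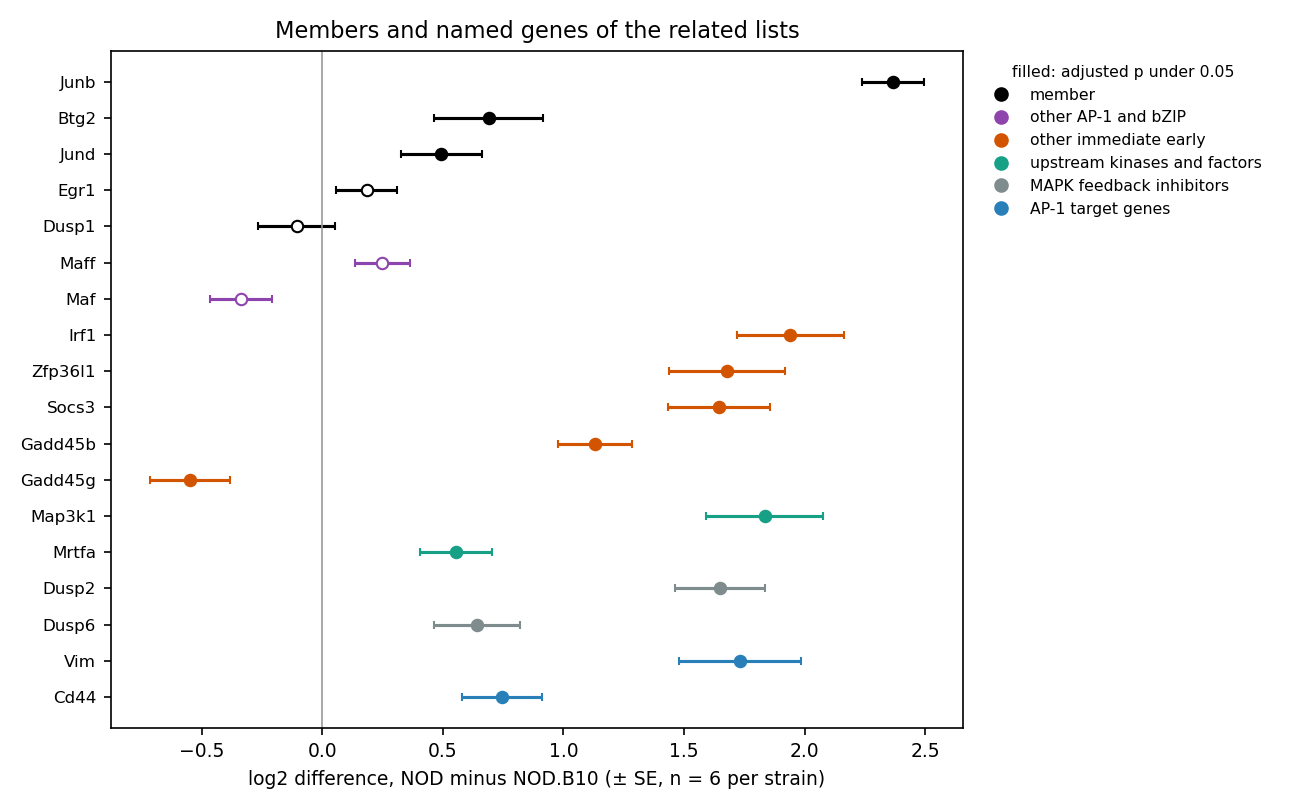
Log2 difference, NOD minus NOD.B10, ± SE (n = 6 per strain) for the 5 tested members and the named genes of the related lists, coloured by list, with filled points for a limma adjusted p under 0.05. Junb has the largest difference and a narrow error, and the signs of Jund, Egr1, Dusp1, Maf and Mrtfa turn under some scalings and those of Btg2, Maff and Gadd45g with brightness as a covariate. For Socs3, Gadd45b, Mrtfa, Dusp2 and Cd44, with 0 NOD.B10 arrays well above background, the plotted fit is no bound.

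Leukocyte transcripts moved with the strain on the same arrays. All 5 pan-leukocyte markers (Ptprc, Coro1a, Laptm5, Srgn and Rac2) were tested and called higher in NOD. Over all genes tested 18.8% were higher, the share to set beside each marker count here. The summed net Cy5 of the pan-leukocyte markers was 526.4 to 3666 in NOD and 11.6 to 56 in NOD.B10. Of these 5 genes 4, and all tested T, B and plasma cell markers, had 0 NOD.B10 arrays well above background, so they entered the test through NOD alone and their counts follow largely from that filter. Of T cell markers 4 of 4 tested were higher (summed net Cy5 81.2 to 663.4 in NOD and -11.1 to 7.6 in NOD.B10), although Cd3e, Cd3g, Cd4 and Lck were read on no array. Of B and plasma cell markers 5 of 5 tested were higher (404.5 to 2947 in NOD and 2 to 14 in NOD.B10), with Cd79a and Mzb1 on no array. Of myeloid markers 5 of 6 tested were higher, against the same 18.8% (1141 to 7981 in NOD and 53.5 to 135 in NOD.B10), with C1qa, C1qb and Itgam on no array. The myeloid marker that did not pass was Adgre1 (log2 difference -0.068, limma adjusted p = 0.72). Each of the 6 was well above background on at least 1 NOD.B10 array. The part of these cells in the Junb difference was not tested.

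Within NOD, the arrays with the highest leukocyte sums (replicate 2 with 3666 and replicate 1 with 2164) were those with the highest Junb net Cy5 (563 and 473), and the array with the lowest sum (replicate 5 with 526.4) had the lowest Junb (162.5). In NOD.B10 the array with the highest leukocyte sum (replicate 5 with 56) had the highest Junb net Cy5 (25.5), but the other 5 showed no such order: replicate 1, with a sum of 12.4, had a Junb of 19, and replicate 6, with 17.7, had 13. Both measures share the brightness of their array, and NOD replicates 1 and 2 had the largest shares of bright spots (16.46 and 17.32%). In the scaled log2 ratios of Junb the order within NOD was looser. Replicate 3, with a leukocyte sum of 634, had 2.74, beside 2.75 in replicate 2, and replicate 6, with a sum of 1728, had 2.34. Replicate 1 had the highest ratio (3.06) and replicate 5 the lowest (2.20).

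**Figure D4:**
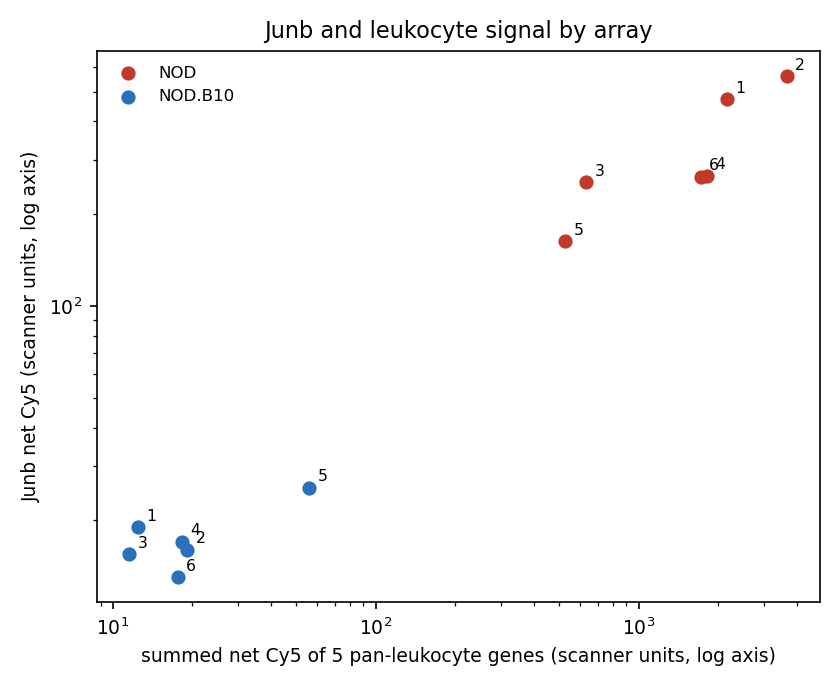
Net Cy5 of Junb against the summed net Cy5 of 5 pan-leukocyte genes on each of the 12 arrays, in scanner units on log axes, numbered by replicate. The 6 NOD arrays lie at 162.5 to 563 for Junb and 526.4 or more for the leukocyte sum, apart from the NOD.B10 arrays on both axes.

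The labelled tissue was read. Ins1, Ins2, Iapp and Gcg were well above background on all 12 arrays, while Mafa, Pdx1 and Slc30a8 were so on no array. Of 7 tested beta cell markers, 3 were lower and 0 higher in NOD, against 17.8% lower and 18.8% higher over all genes tested. Their summed net Cy5 overlapped, at 4277 to 33190 in NOD and 12170 to 30880 in NOD.B10. Acinar transcripts were present too, and 4 of 6 tested were lower in NOD, against the same 17.8%. These lower calls depend on the scaling, since 0 of 3920 genes were called lower with median centring.

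Across the 12 arrays, after each strain's mean was taken away, the deviations of the members were compared as a description, with array brightness shared by all points. Those of Junb and Btg2 had a Pearson r of 0.52, Junb and Egr1 0.54, Junb and Dusp1 -0.50, and Junb and Jund 0.06. Outside the members, the tested genes nearest to Junb in these deviations were Hnrnph3 (r = 0.92), S100a11 (0.91) and Med13l (0.91), those near Jund included Timp2 (0.84) and Lamp2 (0.84), and those nearest to Btg2 were Nup88 (0.93), Nr3c1 (0.90) and Stk17b (0.89). They are among the highest of 3915 values over 12 arrays. Of these genes outside the members only Stk17b, a kinase of lymphocytes, passed between the strains (log2 1.33, limma adjusted p = 0.0016). Med13l lay just over the threshold (log2 0.56, adjusted p = 0.051).

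The differences of the 5 tested members depended to different degrees on the processing. Junb stayed higher with an adjusted p under 0.05 in 18 of 19 alternatives, from 1.26 for Cy5 alone to 2.53 with no background correction, and the exception was slide 3 alone. Jund kept its sign and call in 7 of 19 and Btg2 in 8 of 18, and their other values are in the plot by alternative.

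**Figure D5:**
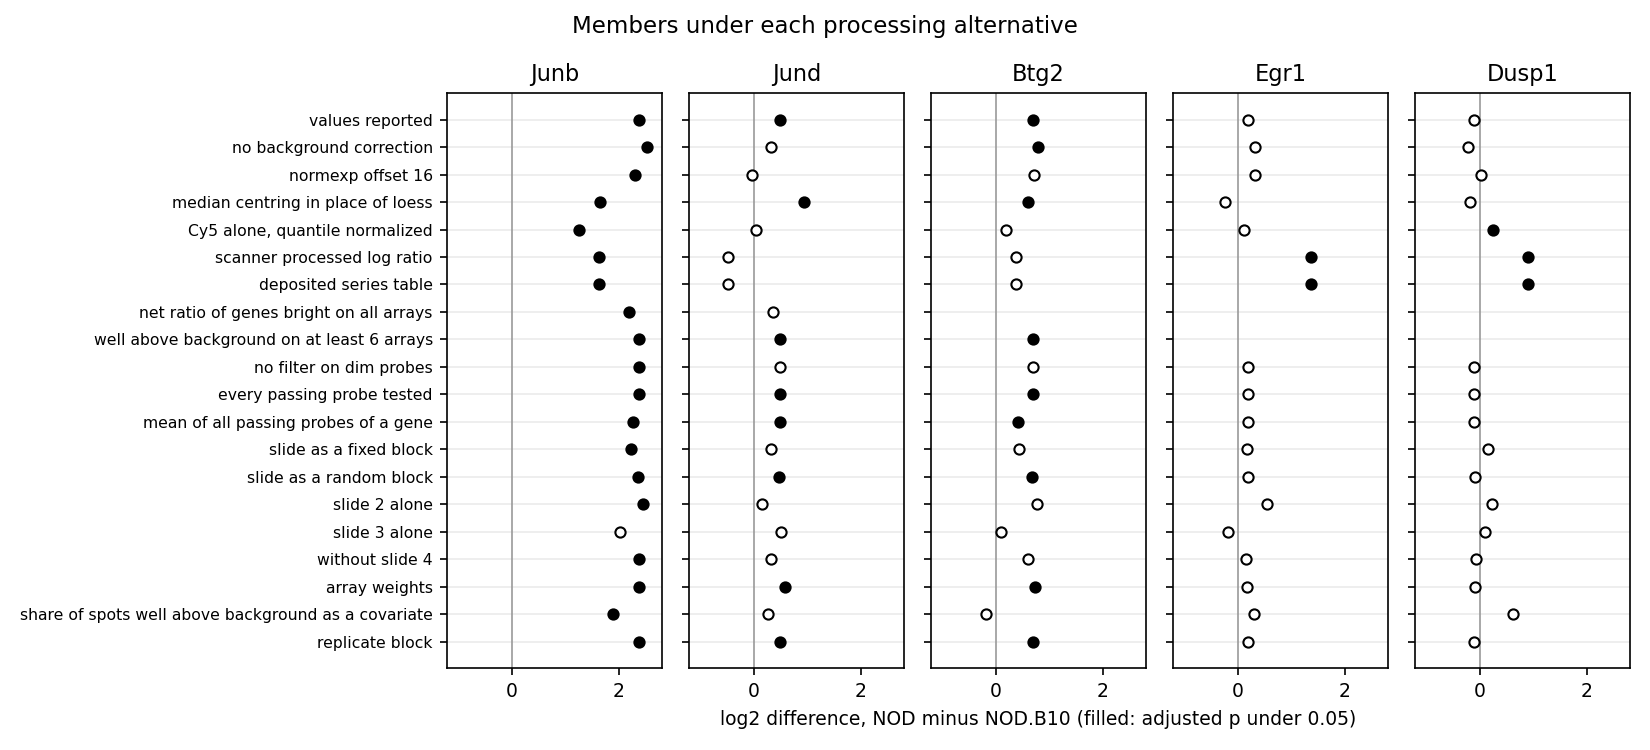
Log2 difference, NOD minus NOD.B10, of the 5 tested members under each processing alternative, with filled points for a limma adjusted p under 0.05. Values under median centring, the scanner's processed ratio, the deposited table and the net ratio are relative to the median of all genes, while their tests are of the values before that shift. Junb lies right of 0 throughout, and Jund, Btg2, Egr1 and Dusp1 cross 0 in at least 1 alternative.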

How the data were processed

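RNA of laser-captured islets was measured on 12 arrays, 1 per mouse (6 NOD and 6 NOD.B10), with Cy5 for islet RNA and Cy3 for the common reference and no dye swap. The deposited scanner intensity values (median signal and local background per spot) come from Feature Extraction (version 10.5.1.1) per the file headers and are not normalised. The array design was annotated on mm8 per the file headers. The files also hold processed intensity values and a log10 ratio of processed Cy5 over Cy3, for which the authors' software subtracted background, removed spatial trends and balanced the dyes per the file headers. The deposited series table holds log2 ratios that equalled processed Cy5 over processed Cy3 within 0.001 for 100% of those compared. Its scale and direction were settled by this and no further centring was found (array medians -0.285 to -0.062). Other deposited columns are quality marks set by the scanner software per the file headers.

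In limma 3.58.1 (R 4.3.3), normexp with an offset of 50 and then loess within arrays were applied to the medians, with no weight in loess for the 1639 control spots of 45018 and for outlier spots (160 to 250 per array), and outliers dropped from a probe's mean if it had other spots. No spot was saturated. Probes were named by accession through a RefSeq table of GRCm38.p6, used for names only. Of the passing probes 1075 had no symbol. For each gene the passing probe with the highest mean net Cy5 was tested with lmFit and eBayes, and every probe of the members was described. Strain differences are NOD minus NOD.B10, with Benjamini-Hochberg adjustment over the 3920 genes and a threshold of 0.05. The fit was tested on simulated data. Where 0 NOD.B10 arrays were well above background, a fold is a lower bound, with a floor for Cy5 on those arrays, namely percentile 10 of all their signals marked well above background, and none is given where it is under 1. This percentile was chosen after values were seen. Bounds were computed on Cy5 after the mean intensity of both dyes was quantile normalised between arrays. The p-value beside a bound is of the log2 ratio. Under other scalings it is no bound. With Cy5 alone, log2 differences were 0.87 for Socs3, 0.61 for Gadd45b, 0.75 for Dusp2 and 0.35 for Cd44. Their log2 bounds were 1.36, 0.83, 0.89 and 0.54. For Mrtfa the difference and bound were 0.21 and 0.19. Besides the 10 members, the genes named from each list are up to 4 that passed in each direction, by ascending p, or up to 2 where none passed. A few genes that these rules name are not reported here. Likeness to a member well above background on at least 10 arrays was measured by Pearson's r of deviations from the strain mean. A total of 7 further immediate early genes that passed are named without values, after they were seen. The members and lists were chosen with earlier results of these data known. The labels give 1 mouse per array, so the p-values measure the spread between mice together with that of capture, amplification and hybridisation. Slide 1 held only NOD and slide 4 only NOD.B10, so the strain difference is in part one between slides. Array data carry no counts, and the number of arrays limits the precision.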

Additional observations from a re-analysis of the deposited data

Results flagged for a closer look

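In each strain of 6 arrays, a value was looked at again when its gap to the nearest array, over the range of the strain, was above Dixon's critical value for that number of samples. Of 56 sets of 6 values (28 probes or genes in either strain), 4 met this, and chance alone gives about 1 in 20. Fosb in NOD replicate 4 had a log2 ratio of 0.2, with the other NOD arrays at -0.12 to -0.02. Fosb in NOD.B10 replicate 3 had 0.17, with the others at -0.12 to -0.02. Both are readings of a probe not well above background in Cy5. Maf in NOD.B10 replicate 5 had -0.75, with the others at -0.49 to -0.34. Mrtfa in NOD replicate 2 had 1.34, with the others at 0.37 to 0.68.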

How the results depend on the processing

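Of the 19 alternatives to the values reported, Junb kept its direction and call in 18 and Jund in 7. For genes called higher in NOD (738), the count was 1966 with median centring, 135 with net ratios of bright genes, 366 with slide as a fixed block, 41 within slide 2, 1 within slide 3 and 3 with the share of bright spots as a covariate. For genes called lower (697), it was 0, 265, 341, 46, 1 and 0 in the same settings, 247 with Cy5 alone, 313 with the processed ratio and with the deposited table alike, and 1375 with no filter on dim probes. At an unadjusted p under 0.05 limma gave 2297 higher and 2 lower with median centring, 364 and 355 within slide 2, 315 and 233 within slide 3, and 161 and 135 with the covariate. The median of all genes moved by 0.44 with median centring, 0.48 with the processed ratio or the deposited table and -0.29 with net ratios, and the values below are relative to it. The 3 members called higher became 1 with an offset of 16, with net ratios, with no filter, with slide as a fixed block, within slide 2, without slide 4 and with the covariate, and 0 within slide 3. With the processed ratio or the deposited table the count was 3, but of Junb, Egr1 and Dusp1. Jund and Btg2 did not pass there (limma adjusted p 0.996 and 0.152). With Cy5 alone 2 were called, Junb and Dusp1, and with no background correction 2, Junb and Btg2. The excess of bright spots in NOD was 6.53 percentage points within slide 2 and 6.7 within slide 3 (exact permutation p = 0.333, the smallest that 2 against 2 allow), against 7.83 over all arrays. Leaving out 1 mouse at a time gave 609 to 854 genes higher, 567 to 805 lower, 1 to 3 members called and 7.18 to 8.51 percentage points.

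Jund reversed to -0.03 with an offset of 16 and to -0.47 with the processed ratio or the deposited table. Btg2 reversed to -0.18 with the covariate, and Egr1 to -0.24 with median centring and -0.19 within slide 3. Dusp1 reversed to 0.017 with an offset of 16, 0.25 with Cy5 alone, 0.89 with the processed ratio or the deposited table, 0.16 with slide as a fixed block, 0.23 within slide 2, 0.092 within slide 3, 0.61 with the covariate and 0.0076 without NOD replicate 2, with -0.20 to 0.0076 over the 12 single mice left out. Maf reversed to 0.28 with Cy5 alone, 1.47 with the processed ratio or the deposited table, 0.037 within slide 3 and 0.28 with the covariate. Mrtfa reversed to -0.067 with median centring and -0.11 with the covariate, Maff to -0.043 and Gadd45g to 0.058 with the covariate. The cause was not tested.

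The replicate numbers are shared by the strains, but the correlations of same-numbered deviations ran from -0.15 to 0.21 and do not pair the mice. With the replicate block, 642 genes were higher and 588 lower, and Junb, Jund and Btg2 still passed (limma adjusted p 7.5e-05, 0.024 and 0.047). No other tested member, and no list gene given with values, changed its call. Dim NOD.B10 signals limit most members, since 1220 of the 3920 genes tested passed the background mark on 0 arrays of that strain.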
